A study of Homo sapiens with 2 samples.

Results

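Replication-dependent clustered histone genes are described here in PC-3 cells with and without knockdown of SHISA2. A gene belonged to the set if its symbol begins with H2AC, H2BC, H3C or H4C or is one of H1-1 to H1-6, and if at least 1 probe set of the array is annotated to that gene alone. The rule uses names and no measured value. It found 45 genes on 51 probe sets, of 19775 genes on 41097 probe sets in all. RefSeq lists 86 symbols that fit the name rule, 70 of them protein coding. The siSHISA2_PC-3 array held RNA of PC-3 cells transfected to express a short hairpin RNA (shRNA) against SHISA2, and the siCONTROL_PC-3 array RNA of PC-3 cells given the control shRNA vector. The names carry the prefix si, but the study's design describes vectors that express shRNA. PC-3 is an established human prostate cancer line that is known to lack functional p53. The labels do not say whether the transfected cells were a clone or a pool, or when they were harvested.

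There was 1 array per group, so no difference below was tested against the spread between cultures and no p-value was computed. The precision of all values is limited by the number of arrays. SHISA2 itself read 1506 in the knockdown array, against 3536 in the control array, which is 42.6% of the control signal. Of 4 epithelial markers, 3 were measured (KRT8, KRT18 and EPCAM), with a summed signal of 19836 in knockdown cells and 20977 in control cells, and CDH1 was not above a signal of 47.9, the floor used throughout. Of 4 genes chosen as absent or low in PC-3, only KLK3 had a probe set of its own. KLK3 read 251.0 in knockdown cells and 242.3 in control cells. Of the markers of other cells, COL1A1 and DCN of fibroblasts read 577.0 and 53.3 in knockdown cells, against 787.2 and 35.9 in control cells. CDH5 and PECAM1 of endothelium read 261.5 and 121.7 in knockdown cells, against 155.9 and 104.6 in control cells. Their log2 ratios were 0.75 and 0.22. The summed signals in the knockdown and control arrays were 383.2 and 260.5 for endothelium (2 of 4 measured), 630.3 and 823.1 for fibroblasts (2 of 5) and 57.3 and 30.6 for leukocytes (1 of 5), while PTPRC, CD14, VWF, KDR, COL3A1, LUM and PDGFRB were not above the floor. Their part in the histone values was not tested. In such bulk RNA, fewer cells that express a gene and less RNA per cell cannot be told apart.

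Histones H2A, H2B, H3 and H4 form the core of the nucleosome, and H1 binds the linker DNA between nucleosomes. Their clustered genes are known for short, mostly intronless transcripts that are made in S phase, when new DNA must be packaged. Such mRNAs end in a stem-loop that binds SLBP and usually carry no poly(A) tail, although some histone genes also give polyadenylated transcripts, for example in cells that have stopped dividing. The labelling kit named in the labels' protocols is known to start from oligo(dT), which primes on poly(A). Which transcript forms gave the signals was not tested.

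The promoters of these genes carry elements that are typical of their histone type, and they are shown because the values below are grouped by type. The 250 bases upstream of the start were searched in the RefSeq promoter table (GRCh38.p14) for 68 promoters of 64 protein-coding histone genes, on both strands. H2A and H2B genes often start head to head, so an element between them counts for both. The octamer ATTTGCAT, known as the site of the factor Oct-1 in H2B promoters, was found in 15 of 20 H2B promoters (75%), against 1.63% of all 35116 promoters. It was also in 11 of 16 H2A promoters, but only 1 of these had it on the gene's own strand. The H1 box AAACACA stood in all 6 H1 promoters and in none of the other histone types, against 4.82% of all promoters. The H4 element GGTCCG, part of the site of the factor HINFP, was in 12 of 13 H4 promoters (92.3%), against 9.43% of all. CCAAT was in all promoters of H1, H2A, H2B and H3 genes but in 3 of 13 H4 promoters, against 32% of all, and TATAAA in 45 of the 68, against 10.7% of all.

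Printed below, 5′ to 3′ on the gene's strand, are the upstream windows of 4 H2B genes, of H2AC6, whose window also spans the upstream region of H2BC4, and of H1-2 and H4C8. Capitals mark matches to these motifs on either strand, and neighbouring or overlapping matches run together. The windows are chr6:27146859-27147108 (minus strand) for H2BC12, chr6:26157871-26158120 (plus) for H2BC5, chr1:149886683-149886932 (minus) for H2BC21, chr6:26183511-26183760 (plus) for H2BC6, chr6:26123922-26124171 (plus) for H2AC6, chr6:26056471-26056720 (minus) for H1-2 and chr6:26285535-26285784 (minus) for H4C8.
H2BC12: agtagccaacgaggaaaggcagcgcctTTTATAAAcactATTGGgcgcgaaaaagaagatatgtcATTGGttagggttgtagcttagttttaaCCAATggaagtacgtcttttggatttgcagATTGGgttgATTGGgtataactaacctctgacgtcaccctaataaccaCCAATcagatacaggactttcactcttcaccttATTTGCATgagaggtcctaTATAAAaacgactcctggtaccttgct
H2BC5: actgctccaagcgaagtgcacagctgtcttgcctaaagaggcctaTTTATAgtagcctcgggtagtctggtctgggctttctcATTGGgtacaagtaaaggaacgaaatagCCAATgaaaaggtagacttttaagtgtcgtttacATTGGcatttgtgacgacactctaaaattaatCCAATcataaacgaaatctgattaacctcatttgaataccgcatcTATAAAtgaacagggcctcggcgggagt
H2BC21: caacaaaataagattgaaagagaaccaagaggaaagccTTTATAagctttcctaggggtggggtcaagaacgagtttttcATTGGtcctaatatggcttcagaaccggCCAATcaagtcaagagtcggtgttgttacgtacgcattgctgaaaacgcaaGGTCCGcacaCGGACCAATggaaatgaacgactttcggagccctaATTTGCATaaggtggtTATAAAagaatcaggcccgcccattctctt
H2BC6: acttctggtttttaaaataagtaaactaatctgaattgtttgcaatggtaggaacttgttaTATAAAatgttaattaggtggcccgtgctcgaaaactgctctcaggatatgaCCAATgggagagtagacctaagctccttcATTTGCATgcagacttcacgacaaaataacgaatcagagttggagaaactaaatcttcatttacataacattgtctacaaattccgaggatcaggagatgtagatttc
H2AC6: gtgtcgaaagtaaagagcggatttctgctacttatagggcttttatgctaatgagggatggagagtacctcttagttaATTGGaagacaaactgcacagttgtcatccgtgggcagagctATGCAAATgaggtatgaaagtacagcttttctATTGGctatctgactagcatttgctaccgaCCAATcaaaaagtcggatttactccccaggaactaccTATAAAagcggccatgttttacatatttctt
H1-2: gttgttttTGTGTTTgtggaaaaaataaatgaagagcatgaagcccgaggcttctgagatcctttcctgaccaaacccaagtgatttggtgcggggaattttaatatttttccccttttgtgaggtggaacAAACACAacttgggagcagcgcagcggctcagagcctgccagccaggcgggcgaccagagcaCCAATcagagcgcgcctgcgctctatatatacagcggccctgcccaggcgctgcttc
H4C8: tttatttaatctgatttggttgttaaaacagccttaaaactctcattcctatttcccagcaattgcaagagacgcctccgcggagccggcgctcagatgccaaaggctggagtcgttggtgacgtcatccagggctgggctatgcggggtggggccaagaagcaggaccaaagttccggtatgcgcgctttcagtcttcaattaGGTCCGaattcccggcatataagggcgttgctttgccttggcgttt
H2BC12, H2BC21 and H2BC6 hold the octamer on their own strand, H2AC6 holds it on the strand of H2BC4, and H2BC5 holds no match to it in this window. H1-2 holds the H1 box on both strands, and H4C8 holds the H4 element but neither CCAAT nor TATAAA.

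The clustered histone genes were mostly higher in the knockdown array. Ratios were above 0 in 14 of 16 measured H2A and H2B genes and in 7 of 11 H1, H3 and H4 genes. The deposited values are MAS5 signals, linear intensities of a probe set. The floor of 47.9, the median signal over both arrays without control probe sets, replaced any lower signal, and a gene was measured where either array exceeded it. The measured probe set that was brightest by mean log2 signal stands for its gene, as the log2 ratio of knockdown over control. Of the 45 genes, 27 were measured. Of these 21 had a ratio above 0, with a median of 0.45 (1.37-fold), where 52.2% of all 12931 measured genes were above 0 with a median of 0.01. In 5 of the 27 (H2BC14, H4C7, H1-4, H2AC5P and H3C7) only 1 array exceeded the floor, which fixed their sign. Of the other 22 genes, 19 were above 0, with a median of 0.50. The 52.2% of all genes still includes genes with 1 signal at the floor. At least 1.5-fold higher were 7 of the 27, against 5.01% of all measured genes, and none was 1.5-fold lower, against 3.77%. In the 5 genes with 1 signal at the floor, the brighter signal was at most 67.6. That is under 1.5 times the floor, so none of these 5 could be called. With the floor at 11.3, 13 of 40 histone genes were 1.5-fold higher and 9 lower, against 14.5% and 11.3% of all genes. None reached 2-fold in either direction, which 0.92% of all genes did upward and 0.565% downward. Dividing each array by its median moved the median of all genes to -0.12, with 29.8% of them above 0, 3.03% at least 1.5-fold higher and 6.72% lower. Of the histone genes 19 were then above 0, 4 were 1.5-fold higher and none lower. Without _x_at and _s_at probe sets, which can share probes with other transcripts, 18 genes were left, 12 of them above 0, and the median was 0.14. Of all genes in this setting 51.4% were above 0, with a median of 0.01. These 18 include all 5 genes whose sign was fixed by the floor.

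**Figure D1:**
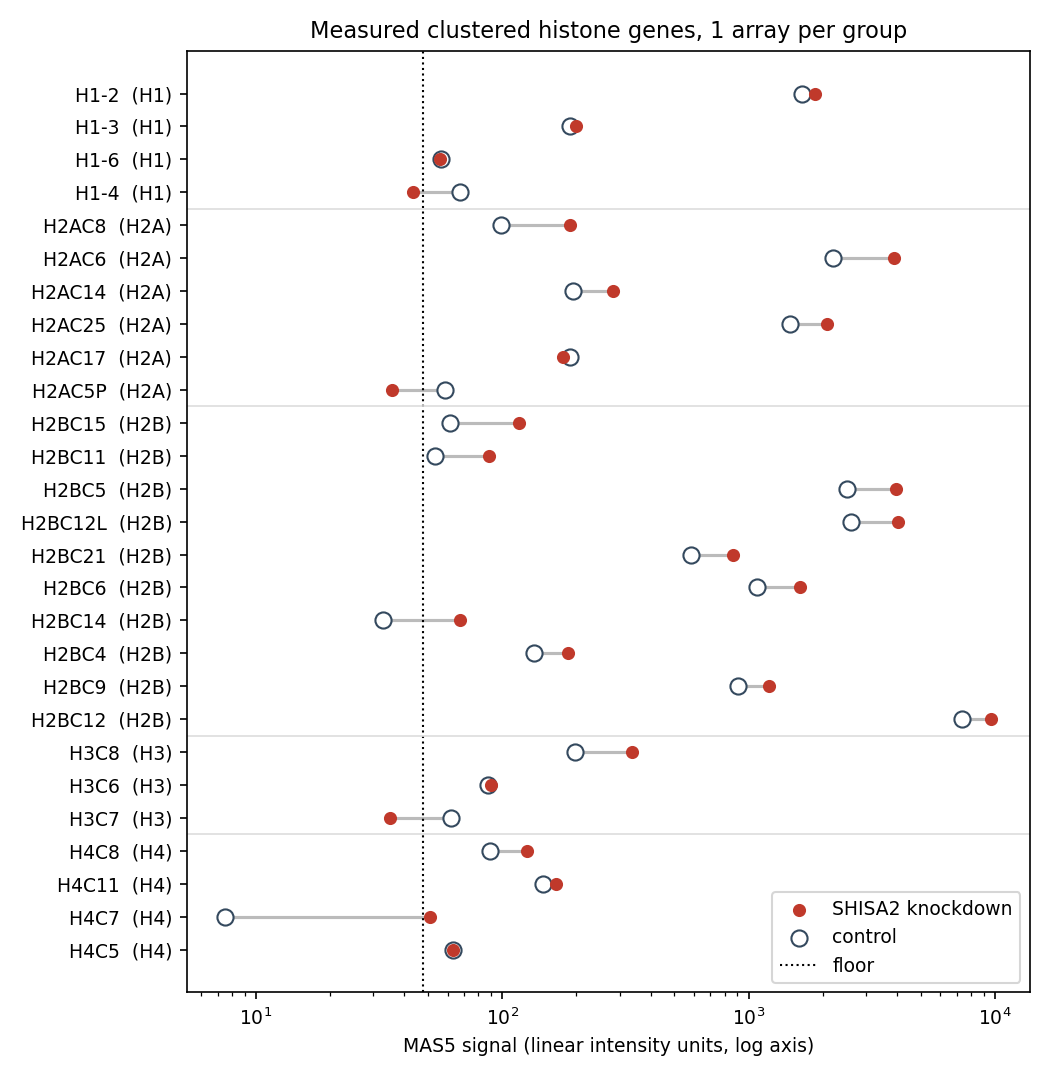
Signal of each measured clustered histone gene in the SHISA2 knockdown array (filled) and the control array (open), on a log axis of linear MAS5 units, grouped by histone type and ordered by ratio. The dotted line is the floor of 47.9. For all 10 H2B genes the knockdown point lies to the right of the control point, while H1-4, H2AC5P and H3C7 lie to the left with the knockdown signal under the floor.

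How well different probe sets of a gene agreed gave a technical yardstick. Between the brightest pair of measured probe sets, the log2 ratios differed with an SD that corresponds to 0.286 for a single probe set (6428 genes), or to 0.155 with the floor raised to 387.3, the 75th percentile (3088 genes). It does not include the spread of cultures, extractions or arrays. It applies to a single probe set and not to a median over genes, and members with like sequences may not be independent readings.

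H2B genes, whose protein pairs with H2A in the nucleosome, were higher in 10 of 10 measured, or in 9 of 9 with both signals above the floor. The sign of the tenth, H2BC14, was fixed by its control signal being under the floor. The H2B ratios ran from 0.40 to 0.93 with a median of 0.57, and 4 of the 10 were at least 1.5-fold higher. Of all measured genes 52.2% were above 0 and 5.01% at least 1.5-fold higher. H2BC12 read 9679 in knockdown cells and 7348 in control cells, a log2 ratio of 0.40. It is read by a probe set that is neither _x_at nor _s_at, and 1303 of the 12931 measured genes had a higher ratio.

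H2BC5 had 2 measured probe sets, both of the _x_at kind, and both were higher. They read 3960 and 4137 in the knockdown array, against 2514 and 2261 in the control array, with ratios of 0.66 and 0.87. H2BC12L, an H2B gene on chromosome 21 and so outside the large clusters, read 4049 against 2613 in the control (0.63) on an _x_at probe set. Such probe sets can detect transcripts of similar genes, and whether H2BC5 and H2BC12L are separate readings was not tested.

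H2BC6 read 1611 in knockdown cells and 1086 in control cells (0.57), and H2BC9 1208 against 906.2 (0.41), again on _x_at probe sets. H2BC21, on chromosome 1, read 868.5 against 585.1 (0.57) on an _s_at probe set. All these signals were above 387.3 in both arrays. With the floor at that level the ratios of all genes had an SD of 0.22, against 0.34 with the floor at 47.9.

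The other H2B genes were dimmer. H2BC15 read 116.6 in knockdown cells and 61.2 in control cells (0.93), and H2BC11 88.1 against 53.6 (0.72), a control signal close to the floor. H2BC4 read 184.9 against 135.0 (0.45). H2BC14 was at least 1.41-fold higher, at 67.3 against a control signal of 32.8 under the floor. None of these 4 is read by a shared kind of probe set, and neither is H2BC12. Of these 5 probe sets, the 4 with both signals above the floor were above 0, with a median of 0.59. The median of the 5 was 0.49, where the 5 _x_at ones had 0.63.

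Among H2A genes 4 of 6 were above 0, against 52.2% of all measured genes, and the median ratio was 0.52. H2AC6 read 3885 in knockdown cells and 2198 in control cells, which is 1.77-fold higher (0.82), on an _s_at probe set. H2AC8 read 188.4 against 98.8 (0.93), and H2AC14 282.4 against 194.2 (0.54).

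H2AC25 gave readings in opposite directions. Its brighter probe set read 2090 in knockdown cells and 1475 in control cells (0.50), and its dim _x_at probe set 49.7 against 72.9 (-0.55). The knockdown reading of the dim probe set is just above the floor. H2AC17 was close to equal at 177.2 against 188.5 (-0.09). The pseudogene H2AC5P read 35.7, under the floor, against 58.6, and so was at least 1.22-fold lower. Without _x_at and _s_at probe sets the H2A median was 0.21 over 4 genes, H2AC5P among them.

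Among H1 genes 2 of 4 were above 0, against 52.2% of all measured genes. H1-2, a linker histone of dividing body cells, read 1866 in knockdown cells and 1649 in control cells, a ratio of 0.18, which is 1.15 times the yardstick of 0.155 for bright signals. H1-3 read 200 against 188.0 (0.09). The testis linker histone H1-6 read 55.8 against 56.3 (-0.01), and H1-4 was at least 1.41-fold lower at 43.5, under the floor, against 67.6. The H1 median was 0.04, or 0.09 over 3 genes without H1-4, whose sign was fixed by the floor. The median over all 4 genes was below 0 after median scaling (-0.10), quantile normalization (-0.04) and removal of a loess trend (-0.02). Median scaling put the median of all genes at -0.12.

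H3 and H4 genes were mixed, and those read by a probe set of their own were dim. H3C8 read 336.2 in knockdown cells and 198.1 in control cells, 1.70-fold higher (0.76), on an _x_at probe set. H3C6 was close to equal at 89.8 against 87.7 (0.03), and H3C7 was at least 1.30-fold lower at 35.0, under the floor, against 62.1. Without H3C7, whose sign was fixed by the floor, the H3 median was 0.40 over 2 genes. The median of 0.03 over 3 genes was below 0 after median scaling (-0.11, where the median of all genes was -0.12), quantile normalization (-0.08) and loess (-0.09).

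For H4, H4C8 was higher on both of its measured probe sets, at 126.3 and 134.9 in the knockdown array, against 89.4 and 69.6 in the control array (0.50 and 0.95). A probe set annotated to H4C11 read 164.7 against 146.3 (0.17), and the transcript it was designed on is listed in RefSeq under H4C12. H4C5 read 62.9 against 63.4 (-0.01), and H4C7 was at least 1.07-fold higher, at 51.1 against 7.5. The H4 median was 0.13, and it stayed above 0 after median scaling (0.03), quantile normalization (0.07) and loess (0.07).

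**Figure D2:**
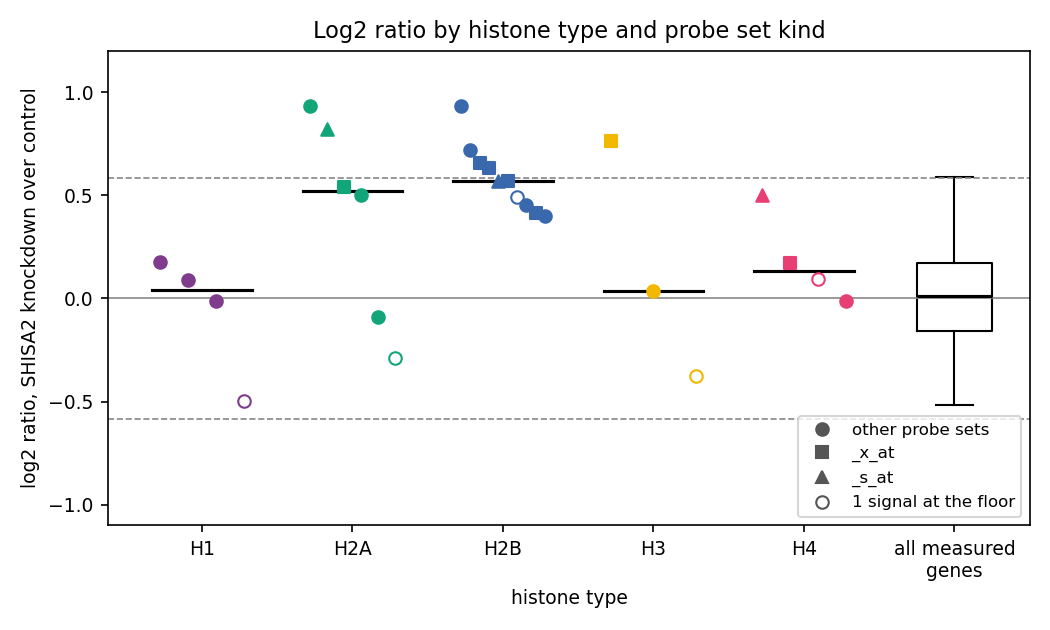
Log2 ratio of SHISA2 knockdown over control for each measured histone gene, by histone type, with marker shape for the kind of probe set, open markers for genes with 1 signal at the floor and a bar at each median. The box of all 12931 measured genes shows the quartiles with whiskers at the 5th and 95th percentiles, and dashed lines mark 1.5-fold. All H2B points lie between 0.40 and 0.93, and the medians of H1 and H3 lie close to 0.

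The signal level of a gene bears on how far its ratio stands out. With the floor at 387.3, 8052 genes were measured, of which 0.758% reached 1.5-fold upward and 1.35% downward. Of the 9 histone genes in that range, all were above 0, against 49.9% of all these genes, and 3 were at least 1.5-fold higher (H2AC6, H2BC5 and H2BC12L). Their median was 0.57. H2AC6 had the largest ratio of the 9, with 12 of the 8052 genes above it, followed by H2BC5 with 33 and H2BC12L with 45 above. H2BC21 and H2BC6 had 67 and 69 genes above them, H2AC25 112, H2BC9 209 and H2BC12 236. H1-2 stood lowest with 1251 genes above it. In units of the yardstick of 0.155, H2AC6 was at 5.32, H2BC5 at 4.24, H2BC12 at 2.57 and H1-2 at 1.15. H2AC6, H2BC5, H2BC12L, H2BC21, H2BC6 and H2BC9 are read by _x_at or _s_at probe sets, and whether they are separate readings was not tested. H2AC25, H2BC12 and H1-2, read by other kinds of probe set, were at 0.50, 0.40 and 0.18.

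**Figure D3:**
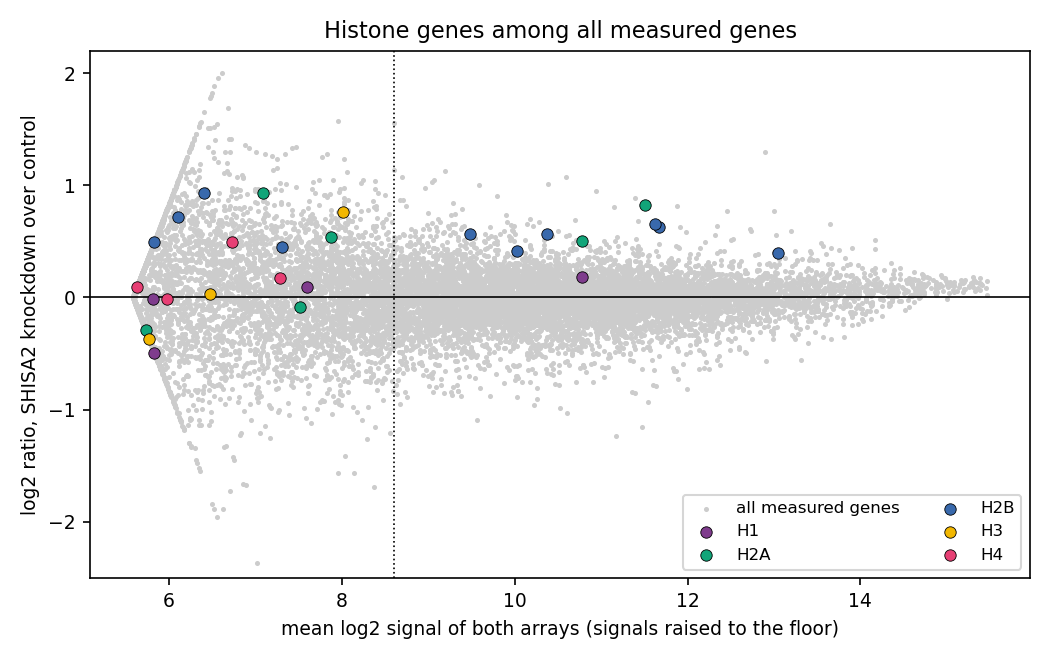
Log2 ratio of SHISA2 knockdown over control against the mean log2 signal of the arrays for all 12931 measured genes (grey) and the 27 histone genes (coloured by type). The dotted line marks a signal of 387.3. To its right 8 of the 9 histone genes form a band from 0.40 to 0.82, and H1-2 lies below that band at 0.18.

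Separated by kind of probe set, the 9 measured _x_at histone probe sets had a median of 0.57 with 8 above 0, and the 3 _s_at ones a median of 0.57 with all above 0. The remaining 18 had a median of 0.14 with 12 above 0. Among these 18 are H1-4, H2AC5P, H2BC14, H3C7 and H4C7, whose sign was fixed by the floor, so kind and signal level overlap. Over all genes the same kinds had medians of 0.05, 0.02 and 0.01, the share above 0 was 56.8%, 52.3% and 51.3%, and the share at least 1.5-fold higher was 6.9%, 4.48% and 6.69%, against 4 of 9, 1 of 3 and 4 of 18 for histones. Kind and histone type overlap, since 9 of the 12 _x_at and _s_at histone probe sets are for H2A or H2B. Within H2B the medians were 0.63 for 5 _x_at, 0.57 for 1 _s_at and 0.49 for 5 other probe sets. For the 4 of these others with both signals above the floor the median was 0.59. Within H2A they were -0.01 for 2 _x_at, 0.82 for 1 _s_at and 0.21 for 4 others, and within H3 0.76 for 1 _x_at and -0.17 for 2 others. The _x_at and _s_at kinds made up 40% of measured histone probe sets and 38.2% of all measured ones.

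Histone genes are so alike that many probe sets are annotated to several of them, and these fell outside the rule. There were 20 probe sets whose listed genes are all clustered histones, of which 16 were measured and 15 were above 0, against 62.1% of all 1202 measured probe sets of several genes. Their median was 0.59, and 8 of the 16 were at least 1.5-fold higher, against 7.15% of all such probe sets. At least 2-fold higher were 3, against 1.66%. Of the clustered histone genes in RefSeq, 19 are listed only on probe sets shared with other genes.

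For H2A and H2B the shared probe sets went the same way as the single-gene ones, with 10 of 10 above 0. The probe sets for H2AC18 and H2AC19, a duplicated gene pair on chromosome 1, read 9269 against 5713 (0.70), 5454 against 3577 (0.61) and 82.6 against 64.1 (0.37) in the knockdown and control arrays. A probe set for 5 H2B genes including H2BC4 read 401.8 against 186.8 in the control (1.10), and others for the same 5 genes read 1340 against 860.3 (0.64) and 748.0 against 427.3 (0.81). Those for H2BC8 and H2BC11 had ratios of 0.34 and 0.56, and those for a group of 6 H2A genes 0.35 and 0.53.

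Shared probe sets that list H3 genes were higher as well, but only the first of those below lists H3 genes alone. The measured one for 10 H3 genes read 184.0 in knockdown cells and 83.3 in control cells (1.14). One listed for these genes and H2AC7, designed on H3C4, read 223.5 against 107.7 (1.05). One for H3C4 and H2AC7, designed on the H2A gene H2AC7, read 260.6 against 163.1 (0.68).

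Shared probe sets for H4 went in opposite directions. A probe set listed for 14 H4 genes and designed on H4C3 read 3151 in the knockdown array, against 4207 in the control array, a log2 ratio of -0.42 and the only negative one among the 16. Other probe sets listed for the same 14 genes read 427.2 against 329.3 (0.38) and 186.7 against 126.6 (0.56). Of these 3, the one with signals above 387.3 in both arrays was the one that was lower in the knockdown array.

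**Figure D4:**
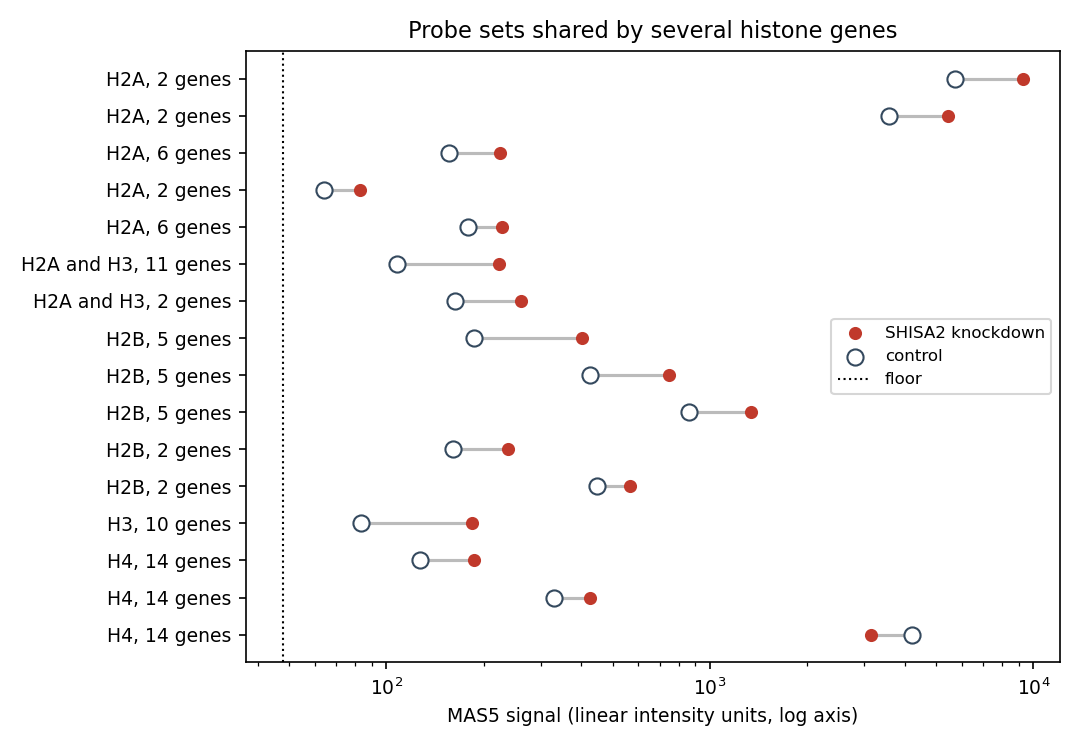
Signal of the 16 measured probe sets that are shared by several clustered histone genes, in the SHISA2 knockdown array (filled) and the control array (open), on a log axis of linear MAS5 units, labelled by histone type and number of listed genes. The knockdown point lies to the right in 15 of the 16, and to the left in 1 H4 probe set at 3151 against 4207.

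Position and gene structure were compared with the ratios as a description. H2A and H2B genes often start head to head. In the RefSeq promoter table, which lacks some histone genes such as H2AC12, 11 such pairs start within 1000 bases of each other. They have 194 to 248 bases between their starts, and in 2 of them both genes were measured. H2AC6 and H2BC4 had ratios of 0.82 and 0.45, and H2AC14 and H2BC14 of 0.54 and at least 0.49. Of the measured genes 24 lie on chromosome 6, with a median of 0.41, 2 on chromosome 1 (0.50 and 0.57) and 1 on chromosome 21 (0.63). Of the 27 measured genes, 5 span over 1000 bases in RefSeq (H2BC4, H2BC5, H2BC12, H2BC21 and H3C6), and their median of 0.45 was close to that of the 22 shorter ones (0.45). All of the 5 but H3C6 are H2B genes, so span and histone type overlap. Of measured H2B genes with a promoter entry, the 7 with the octamer had ratios from 0.40 to 0.72, and H2BC5 and H2BC15, without a match to it in this window, 0.66 and 0.93.

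The 18 members that were not above the floor in either array were H1-1 and H1-5, H2AC4, H2AC15 and H2AC16, H2BC1, H2BC3, H2BC13 and H2BC17, H3C1, H3C2, H3C3 and H3C11, and H4C1, H4C4, H4C9, H4C13 and the pseudogene H4C10P. No ratio is given for them. The counts above cover the 27 measured genes and not all 45.

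Replacement histones, most of which can be made outside S phase from polyadenylated mRNA, were close to 0 as a group. Of 10 measured, 3 were above 0, against 52.2% of all measured genes, and the median was -0.07. None was 1.5-fold apart, where 5.01% of all measured genes were 1.5-fold higher and 3.77% lower. H2AZ1, the variant H2A.Z, read 18956 in knockdown cells and 19939 in control cells (-0.07), and H2AX, the variant that is phosphorylated at DNA breaks, 5211 against 5176 (0.01, but up to 0.69 over its 4 probe sets). The ratio largest in size was that of CENPA, the centromeric H3, at 452.2 against 653.1 (-0.53). H1-10, a replacement linker histone, was at -0.27, MACROH2A2 at -0.18 and H2AJ at 0.12 (-0.17 to 0.19 over its 4 probe sets). H3-3A was dim, at 93.3 in knockdown cells and 108.5 in control cells (-0.22). The ratios of H3-3A and MACROH2A2 were smaller in size than the yardstick of 0.286. H3-4 was at least 1.18-fold higher, with a control signal under the floor.

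Genes for transcription and 3′ processing of histone mRNA had a median of -0.02, with 13 of 28 above 0, against 52.2% of all measured genes. None was 1.5-fold higher and 1 was past 1.5-fold lower, against 5.01% and 3.77% of all measured genes. SLBP, which binds the stem-loop, read 9799 in knockdown cells and 9078 in control cells (0.11). NPAT, the coactivator of histone transcription, read 646.9 against 703.4 (-0.12), and LSM11, a part of the U7 particle that directs cleavage, 730.0 against 873.0 (-0.26, up to 0.34 over its 4 probe sets). LSM10, of the same particle, was at 0.28. At these signal levels the yardstick is 0.155, which SLBP and NPAT did not exceed in size and LSM10 and LSM11 did. The gene past 1.5-fold was the uridylyltransferase TUT1 at 84.9 against 130.2 (-0.62). The cap-binding NCBP1 was at -0.38, cyclin E2, CCNE2, at -0.28, and the cleavage factor CSTF2 at 0.42, with -0.16 on its other probe set. The helicase gene DDX19B was at least 1.44-fold lower, at 7.4, under the floor, against 68.9.

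Histone chaperones, which carry histones to and from DNA, had a median of -0.04 with 9 of 23 above 0, against 52.2% of all measured genes. IPO4, which imports H3 and H4, read 408.4 in knockdown cells and 265.9 in control cells (0.62), and the H3.3 chaperone HIRA 2291 against 1712 (0.42). HJURP, which deposits CENPA, read 2120 against 3122 (-0.56). CHAF1B, of the assembly factor CAF-1, was at -0.40, the H2A.Z chaperone ANP32E at -0.32 (-0.52 to 0.04 over its probe sets) and SUPT6H at 0.34 (-0.14 to 0.34 over its probe sets).

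DNA replication genes, a list added after the data were seen, were below 0 in 24 of 24 by their brightest probe sets, with a median of -0.34. Since the list was drawn up with the data seen, this count describes these 24 genes and not replication genes at large. Of all 12931 measured genes, 6182 were below 0. At least 1.5-fold lower were 3, where 3.77% of all genes were. Other probe sets of 3 of these genes were above 0, at 0.70 for GINS2, 0.05 for GINS4 and 0.04 for GINS3. CDC45 (-0.67), GINS1 (-0.63) and POLE2 (-0.60), of the replication machinery, led the list, followed by RRM2 (-0.56) and TYMS (-0.49), which supply nucleotides, and the primase PRIM1 (-0.46). PCNA, the sliding clamp, read 6302 in knockdown cells and 6547 in control cells (-0.06). Beside this, 21 of the 27 measured clustered histone genes were above 0, and 7 of them were at least 1.5-fold higher. Among the 16 H2A and H2B genes these counts were 14 and 6. The sign of 5 of the 27 was fixed by the floor, upward in H2BC14 and H4C7. Of the 22 with both signals above the floor 19 were above 0, among them 4 of 5 H2A and 9 of 9 H2B genes. Of all measured genes 52.2% were above 0 and 5.01% at least 1.5-fold higher. With 1 array per group, the difference between the lists could not be tested, and the part of the replication genes' shift in the histone values was not tested.

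**Figure D5:**
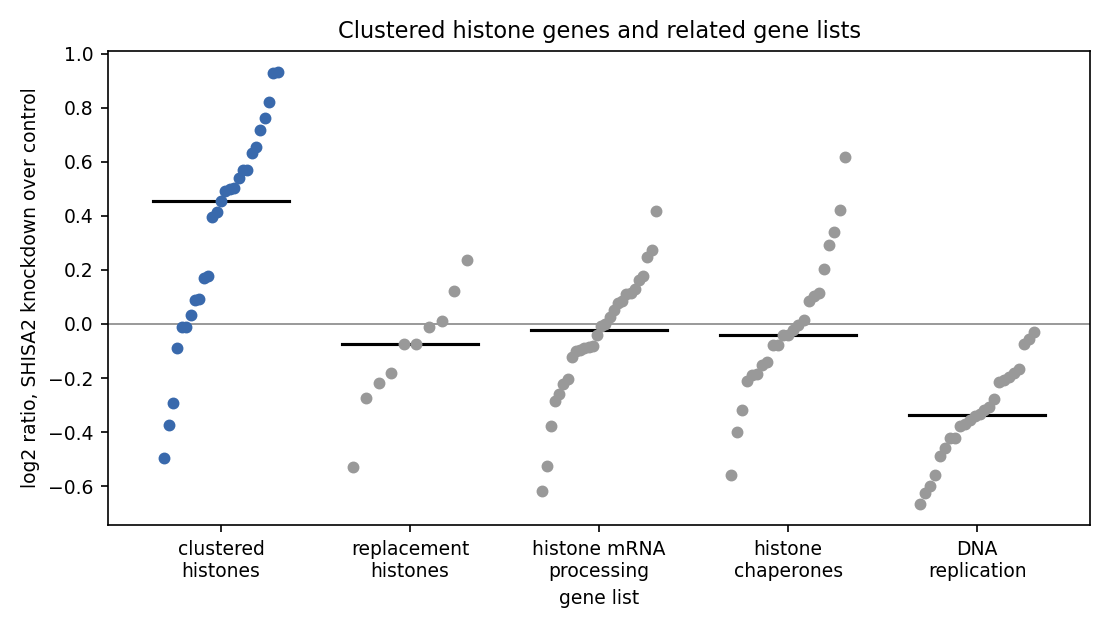
Log2 ratio of SHISA2 knockdown over control for each measured gene of the clustered histones and of 4 related lists, sorted within each list, with a bar at each median. The medians are 0.45 for clustered histones, -0.07 for replacement histones, -0.02 for histone mRNA processing, -0.04 for chaperones and -0.34 for DNA replication.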

How the data were processed

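Signals of 54675 probe sets were deposited for 2 arrays, 1 per group, assigned by title. Per the labels' protocols, biotin-labelled RNA was made from 250 ng of total RNA with a 3′ in vitro transcription kit. Per the submitters' processing notes, the authors made the values with MAS5, with no version stated. The deposited values are signal intensities on a linear scale, with a mean of 500.1 in both arrays after trimming 2% at each end, and no scaling was added. MAS5 signals near background are noisy. The 62 control probe sets were left out, and 41097 probe sets with 1 annotated gene were used, 41043 of them matched to RefSeq (GRCh38.p14) by gene identifier. Floor, choice of probe set and ratio are as given with the results. With 1 array per group no test was possible, and calls are by size (2-fold and 1.5-fold).

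Members and lists were chosen with earlier results of these data known. Named were, per histone type, the 6 measured genes with the highest signal, genes past 1.5-fold, genes whose probe sets disagree in sign and all H1 genes, and per list the 6 largest ratios in size plus SLBP, NPAT and LSM11. All other measured members are named too, to account for each of them. PCNA, GINS2, GINS3, GINS4, H2AZ1 and H2AX were named after their values were seen. Alternatives were median scaling, quantile normalization, removal of a loess trend (span 0.3), a floor of 11.3 (25th percentile) or 387.3 (75th), log2(signal + 1) without a floor, averaging a gene's probe sets, and leaving out _x_at and _s_at probe sets. Code was tested on simulated data. Python 3.11.15, pandas 2.3.3 and statsmodels 0.14.6 were used.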

Additional observations from a re-analysis of the deposited data

How the results depend on the processing

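No paired analysis was possible because there is 1 array per group. No replicate spread exists to judge a move by. A median was therefore counted as moved if it shifted by over 0.1 (log2) or changed sign, and values below without a count are such medians. The median of the histone genes ran from 0.14 to 0.57 over 10 alternatives, 2 of them chosen after seeing the data: 0.49 without pseudogenes and testis genes and 0.50 without genes with 1 signal at the floor. Median scaling, which put the median of all genes at -0.12, lowered the histone median to 0.31, which is 0.44 above that of all genes, as without it. It put H2A at 0.38, H2B at 0.43, H4 at 0.026, H1 at -0.10, H3 at -0.11, replacement histones at -0.21, mRNA processing at -0.17 and chaperones at -0.18, and _x_at, _s_at and other histone probe sets at 0.43, 0.43 and 0.030, with 4 histone genes 1.5-fold higher. Quantile normalization put H1 at -0.041 and H3 at -0.078, and loess H1 at -0.024 and H3 at -0.085. After loess 1 histone gene, H1-4, was at least 1.5-fold lower, against 4.79% of all genes. Averaging probe sets put H2A at 0.26 and mRNA processing at 0.022. Without _x_at and _s_at probe sets all histones were at 0.14, H2A at 0.21, H3 at -0.17 and replacement histones at -0.18. Of 18 histone genes 12 were then above 0 and 4 at least 1.5-fold higher, against 51.4% and 5.92% of all genes. With the floor at the 25th percentile H1 was at -0.013 and _s_at at 0.70. Of 40 histone genes 13 were then 1.5-fold higher and 9 lower, against 14.5% and 11.3% of all genes, and 5 were 2-fold higher and 2 lower, against 7.90% and 5.49%. With no floor H2B was at 0.68, _s_at at 0.70 and 32 of 45 histone genes were above 0, against 52.4% of all genes. Of the 45, 17 were 1.5-fold higher and 10 lower, against 17.0% and 13.9% of all genes. At 2-fold 8 were higher and 4 lower, against 10.9% and 8.63%. With the floor at the 75th percentile 9 of 9 were above 0 and 3 at least 1.5-fold higher, with all histones at 0.57, H1-2 alone at 0.18, H2A at 0.66 (2 genes), _s_at at 0.70, other probe sets at 0.40 and mRNA processing at 0.00054. In each of the other 8 alternatives every measured H2B gene was above 0. Of 384 alternative values of 53 named genes, 368 moved by less than 0.286, the yardstick for a single probe set, and none of the genes past 1.5-fold changed sign. H2AC25 was at -0.03 as the mean of its probe sets, and H2AJ at -0.17 without _x_at and _s_at probe sets. All H3 and H4 genes with probe sets of their own were dim, which limits what can be said of them, and the 1 bright H4 reading, on a shared probe set, was lower in the knockdown array.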
